A study of Mus musculus with 65 samples.

Results

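Early neuronal differentiation genes were followed through ventral neural progenitors made from mouse embryonic stem (ES) cells. The set held 37 of the 25239 genes in the expression table. It was chosen by name, from genes that most neurons use and genes of newborn neurons. The questions were which progenitor domain switched these genes on first and which carried most of their RNA. Pan-neuronal genes encode the cytoskeleton, transport and synaptic proteins that neurons of every subtype need. Genes of newborn neurons encode transcription factors that act as a progenitor leaves the cell cycle. In the neural tube, Notch signalling keeps SOX2-positive progenitors dividing, and proneural factors such as Neurog2 override it and start this programme.

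HM1 cells, a mouse ES cell line, were differentiated to neuromesodermal progenitors (NMPs, day 3, 3 libraries) and then received retinoic acid with SAG, an agonist of Smoothened that stands in for Sonic hedgehog. Sorting followed on days 4, 5 and 6, after fixation and intracellular staining, and gave SOX2-positive progenitors of 4 types, named from ventral to dorsal p3, pMN, p2 and p0-1. The p3 and pMN cells came from 100 and 500 nM SAG, the p2 cells from 10 and 100 nM and the p0-1 cells from 0 and 10 nM. On days 4, 5 and 6 there were 4, 6 and 5 libraries of p3, 4, 6 and 5 of pMN, 3, 6 and 6 of p2 and 5, 6 and 6 of p0-1, which with the NMPs made 65 libraries in 25 groups. Every group came from the same cell line, replicates were separate differentiations, and no genotype beyond the line was given. Per the study's methods the staining panel held an antibody to the neuronal tubulin TUBB3 beside those to SOX2 and the domain factors, and whether TUBB3-positive cells were gated out is not given in the sources used here.

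Expression values were read counts divided by 1 size factor per library and are called normalised reads. A gene was called different in a comparison when it changed more than 2-fold and its adjusted p was below 0.01, with limma on log2(normalised reads + 1) over 13964 genes. All 37 genes of the set were among those tested. The libraries held 7615114 to 13484815 reads and detected 9718 to 15963 genes. The fewest genes were detected in the only p3 library of day 4 at 100 nM SAG (9718), where 21 of the 37 genes were at 0. Then came p3 at 100 nM on day 6, replicate 2 (10338 genes, 15 of the 37 at 0), p2 at 100 nM on day 6, replicate 3 (10541 genes) and p3 at 100 nM on day 5, replicate 2 (10571 genes, 19 of the 37 at 0). Over the 65 libraries, the number of the 37 genes at 0 and the number of genes detected had a Spearman rho of -0.508, given as a description of libraries that differ in type and day. In these bulk samples, fewer cells making an RNA and less RNA per cell cannot be told apart.

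Upstream sequences are shown for 4 of the genes on which the comparisons of domains turn. Nhlh1 and Nhlh2, paired basic helix-loop-helix factors of newborn neurons, are shown because both hold a CAGATG E-box, the core of a motif that proneural factors bind. Map2, which encodes a microtubule-associated protein of dendrites, and Cntn2, which encodes the axonal adhesion protein contactin 2 (TAG-1), are shown beside them because neither holds CAGATG or CAGCTG in this window. Each is the 250 bases before the start site in RefSeq (GRCm38.p6), 5′ to 3′ on the strand given there for the gene, with an E-box in capitals. As a check of strand, bases just after the start site were sought in GENCODE M21 transcripts of the gene. They were found for 3 of these 4 promoters and for 24 of the 37 promoter entries of the set. Which of the 4 had no match was not recorded, so the check does not cover every sequence shown. Nhlh1 lies at chr1:172057597-172057846 (minus strand), Nhlh2 at chr3:102009895-102010144 (plus strand), Map2 at chr1:66175079-66175328 (plus strand) and Cntn2 at chr1:132542941-132543190 (minus strand).
Nhlh1: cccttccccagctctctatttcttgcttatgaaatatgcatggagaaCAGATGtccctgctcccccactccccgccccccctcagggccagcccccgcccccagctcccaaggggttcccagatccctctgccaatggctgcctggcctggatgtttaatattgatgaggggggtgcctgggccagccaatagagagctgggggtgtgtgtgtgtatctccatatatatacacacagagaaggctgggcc
Nhlh2: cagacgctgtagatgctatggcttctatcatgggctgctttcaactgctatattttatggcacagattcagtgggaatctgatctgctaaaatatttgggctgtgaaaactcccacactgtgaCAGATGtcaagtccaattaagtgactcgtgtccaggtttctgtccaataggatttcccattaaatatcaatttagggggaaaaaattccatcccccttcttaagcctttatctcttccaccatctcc
Map2: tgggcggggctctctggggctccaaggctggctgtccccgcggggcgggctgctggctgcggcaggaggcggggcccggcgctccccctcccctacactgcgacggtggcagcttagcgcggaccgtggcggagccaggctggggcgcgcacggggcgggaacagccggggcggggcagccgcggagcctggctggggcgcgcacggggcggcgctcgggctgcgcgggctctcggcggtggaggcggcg
Cntn2: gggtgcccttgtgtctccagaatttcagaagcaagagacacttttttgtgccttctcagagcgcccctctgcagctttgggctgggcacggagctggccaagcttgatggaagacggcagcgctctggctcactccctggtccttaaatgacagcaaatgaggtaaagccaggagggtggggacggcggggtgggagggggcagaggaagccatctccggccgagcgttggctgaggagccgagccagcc
The E-box began at base -203 from the start site in Nhlh1 and at base -127 in Nhlh2. RefSeq promoters of 300 bases were at hand for 25 of the 37 genes, with 37 entries in all. CAGATG, searched on both strands, stood in 8 of those 37 entries (21.6%) and in 17.2% of all 32851 promoters. The genes were L1cam, Myt1l, Nhlh1, Nhlh2 and Stmn3. CAGCTG, which reads the same on both strands, stood in 16.2% of the entries and in 16.3% of all promoters, at Ina, Kif1a, Myt1l, Nhlh2 and Syt1. The shares were therefore close to those of promoters at large, and a match of letters is no evidence of binding.

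Many genes of the set had RNA before neural differentiation began, so the set as a whole did not mark it. A gene is called on in a cell type and day where the median of its libraries was at least 50 normalised reads. By that measure 23 of the 37 genes (62.2%) were already on in NMPs, before any neural progenitor was sorted, where 81.3% of all genes tested were on. Stmn2, which encodes a tubulin-binding stathmin of growing axons, had 786, 775 and 229.7 normalised reads in the 3 NMP libraries. Kif1a, a kinesin motor of synaptic vesicle precursors, had 1414, 1517 and 654. Both were therefore abundant in NMPs, and Stmn2 medians on day 6 were lower, from 80.5 in p2 to 137.6 in pMN. Dcx, which encodes the microtubule-binding doublecortin of migrating neurons, was at 0, 0 and 40.8, and Nhlh2 was at 0 in all 3. The heat map of medians shows this division between genes present throughout and genes that appeared late.

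**Figure D1:**
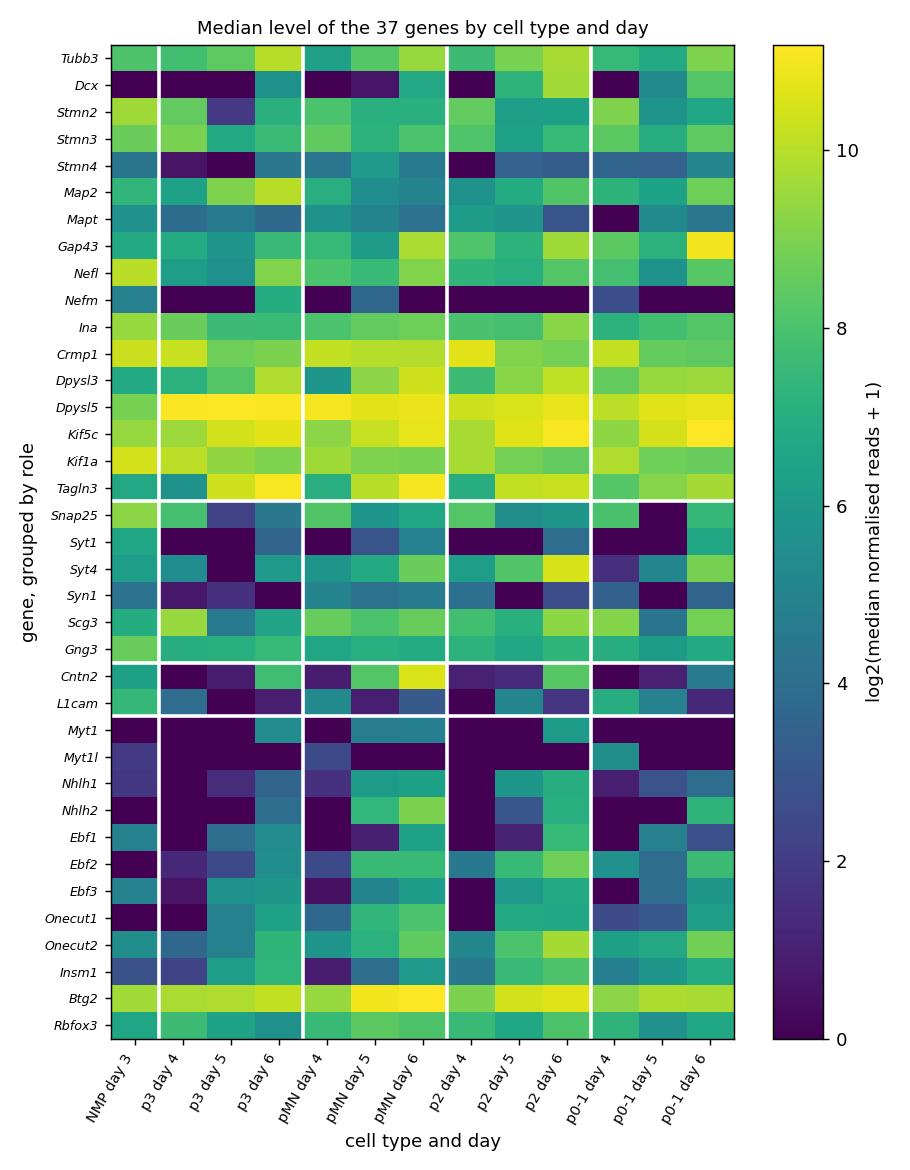
Median level of each of the 37 genes (rows, grouped by role with white lines between cytoskeleton, synapse, adhesion and regulators) in NMPs and in each cell type by day (columns), as log2(median normalised reads + 1) by colour. Kif1a is bright from day 3 on, whereas Nhlh2 is at 0 in NMPs and in the 4 types on day 4.

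From day 4 to day 6, taken as the mean of the 4 cell types, 18 of the 37 genes rose and 0 fell with all libraries in the fit. Of all genes tested, 8.87% were called in this comparison and 5.83% were called higher, against 48.6% of the set. The median log2 change was 2.38 over the 37 genes and 0.02 over all genes tested. The largest changes were those of Dcx (6.54 ± 0.88 SE, adjusted p = 1.23e-07), Nhlh2 (6.45 ± 0.87, adjusted p = 1.36e-07) and Cntn2 (5.92 ± 0.79, adjusted p = 8.81e-08). Among the 18 genes that rose, the smallest error belonged to Kif5c, a conventional kinesin heavy chain, whose log2 change was 1.45 ± 0.16 (adjusted p = 2.09e-09). Without p3 at 100 nM on day 4, replicate 3, 19 genes were called, with Kif1a and Crmp1 added and Map2 lost. Mean log2 levels of Kif1a were 9.75 in p0-1 and 9.6 in pMN on day 4, and at most 8.94 on day 6. Those of Crmp1 were 10.51 in p2 and 10.15 in pMN on day 4, and at most 10.01 on day 6. That 0 genes fell therefore depended on this library. The comparison of day 6 with day 4 and that with NMPs below were added after values had been seen.

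Among the 12 regulators of transcription and RNA, 9 rose. They were Nhlh1 (log2 change 4.25), Nhlh2, Myt1, a zinc finger factor (3.60), the helix-loop-helix factors Ebf1 (4.09), Ebf2 (3.71) and Ebf3 (4.68), the cut homeodomain factors Onecut1 (4.46) and Onecut2 (3.84), and Insm1, a zinc finger factor of cells leaving the progenitor state (4.21). The other 3 were Btg2, an antiproliferative gene of neurogenic divisions (0.67, adjusted p = 0.355), Rbfox3, the splicing regulator known as NeuN (0.05, adjusted p = 0.958), and Myt1l (-1.45, adjusted p = 0.161). Regulators of the newborn neuron therefore made up 9 of the 18 genes that rose.

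Of the 17 genes of the cytoskeleton and axon growth, 6 rose, namely Tagln3, a calponin family gene of neurons (log2 change 4.16 ± 0.36 SE, adjusted p = 8.68e-13), Tubb3 (3.79 ± 0.73, adjusted p = 8.24e-05), Dcx, Kif5c, Dpysl3, a collapsin response mediator (2.41 ± 0.64, adjusted p = 0.0042) and Map2 (2.38 ± 0.61, adjusted p = 0.00275). Stmn4 (2.60, adjusted p = 0.0114), the neurofilament gene Nefl (2.49, adjusted p = 0.067), Stmn3 (-1.47, adjusted p = 0.240) and Stmn2 (-2.21, adjusted p = 0.0721) did not pass. The call for Map2 was lost without p2 at 10 nM on day 4, replicate 3 (1.92, adjusted p = 0.0209) or without p3 at 100 nM on day 4, replicate 3 (1.67, adjusted p = 0.0453). The call for Dpysl3 was lost without pMN at 100 nM on day 4, replicate 2 (2.05, adjusted p = 0.0154). Of the 6 genes that rose, Dcx was off in NMPs and the other 5 were on there, and Stmn4 was also off in NMPs.

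Of the 6 genes of synapse, secretion and signalling, 2 rose, the calcium-sensing synaptotagmins Syt1 (log2 change 3.84, adjusted p = 0.000394) and Syt4 (4.26, adjusted p = 0.00032). Snap25, a SNARE of vesicle fusion, was at -1.05 (adjusted p = 0.467) and Scg3, a secretogranin of dense-core vesicles, at -0.51 (adjusted p = 0.672). Of the adhesion genes, Cntn2 rose and L1cam did not pass (-0.99, adjusted p = 0.479).

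**Figure D2:**
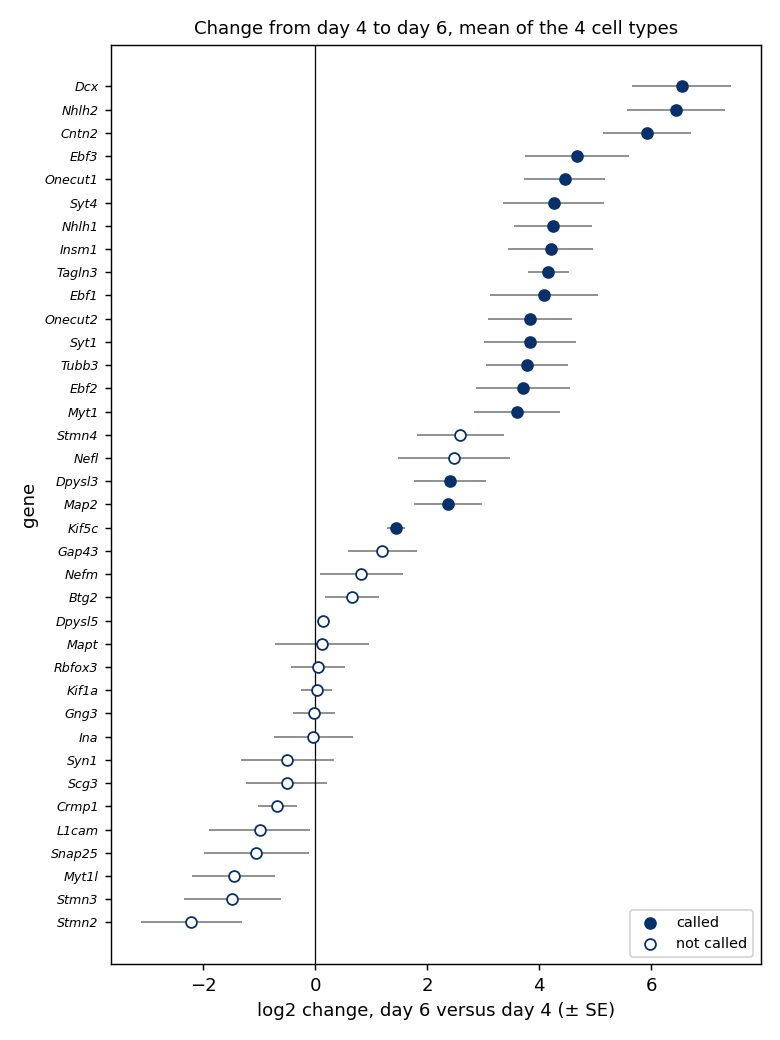
Log2 change from day 4 to day 6 (x axis, mean of the 4 cell types, bars 1 SE) for each of the 37 genes (y axis). Filled points were called, all 18 lie to the right of 0, and Dcx, Nhlh2 and Cntn2 have the largest changes.

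Other genes of the same programme, from lists of textbook genes, were read beside the set. Of 15 proneural and cell cycle exit genes tested, 11 were higher on day 6 than on day 4, among them Neurog2 (log2 change 3.72, adjusted p = 4.81e-07) and Dll3, a Notch ligand family gene of newborn neurons (4.19, adjusted p = 6.59e-16). In NMPs Neurog2 had a median of 0 normalised reads. Dll3 had 2271 there, and its medians on day 6 ran from 1594.5 in p0-1 to 3745.7 in p2. Of 20 further pan-neuronal genes, 4 were higher and 1 lower. Elavl3, an RNA-binding gene of early neurons, was higher (3.48, adjusted p = 4.39e-09) and Nrcam, an axonal adhesion gene, was lower (-1.20, adjusted p = 4.92e-05). Of 9 progenitor genes 3 were higher and 1 lower, and Sox2 itself was at 0.23 (adjusted p = 0.379). With limma 0 of 10 proliferation genes were called.

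Compared with day 3 NMPs, limma called 7 of the 37 genes higher on day 6 and 0 lower, where 7.54% of all genes tested were called and 2.85% were called higher. The genes were Ebf2 (log2 change 7.09), Onecut1 (6.56), Nhlh2 (6.45), Dpysl3 (4.80), Tagln3 (3.62), Dpysl5 (1.86) and Kif5c (1.52). The call for Nhlh2 was lost without any 1 of the 3 NMP libraries (highest adjusted p = 0.0243), with the log2 change unmoved at 6.45. The call for Dpysl3 was lost without NMP replicate 3 (2.47, adjusted p = 0.259). Between NMPs and day 4, where 3.49% of genes were called, Dpysl5, another collapsin response mediator, rose (1.72, adjusted p = 3.97e-08) and Syt1 fell (-6.67, adjusted p = 0.00241). The call for Syt1 was lost without NMP replicate 1 (-6.71, adjusted p = 0.0201) or replicate 3 (-5.95, adjusted p = 0.048). Thus 12 of the genes that rose from day 4 were not called against NMPs, with 18 of the 37 genes under an unadjusted p of 0.05 there.

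Which domain came first was read from the number of genes on. On day 4 the count was 18 of 37 in p3, 21 in pMN, 20 in p2 and 21 in p0-1. On day 5 it was 16, 25, 26 and 18, and on day 6 it was 24, 28, 30 and 27. As shares of the set, the day 4 counts were 48.6% in p3, 56.8% in pMN, 54.1% in p2 and 56.8% in p0-1. Of all genes tested, 73.5, 75.3, 77.9 and 77.7% were on that day. The day 5 shares were 43.2% in p3, 67.6% in pMN, 70.3% in p2 and 48.6% in p0-1, where 74.8, 75.9, 76.2 and 75.3% of all 13964 genes tested were on. On day 6 they were 64.9, 75.7, 81.1 and 73.0%, where 75.5, 76.5, 73.5 and 76.4% of all genes were on. A share over 37 genes varies more than a share over 13964, so their spreads between types cannot be set against each other. Without the 4 libraries that detected the fewest genes, the counts of p3 were 19, 17 and 27 on days 4, 5 and 6 and that of p2 on day 6 was 28, so on day 6 the types lay within 1 gene of each other. These are counts of medians and no test was made on them.

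**Figure D3:**
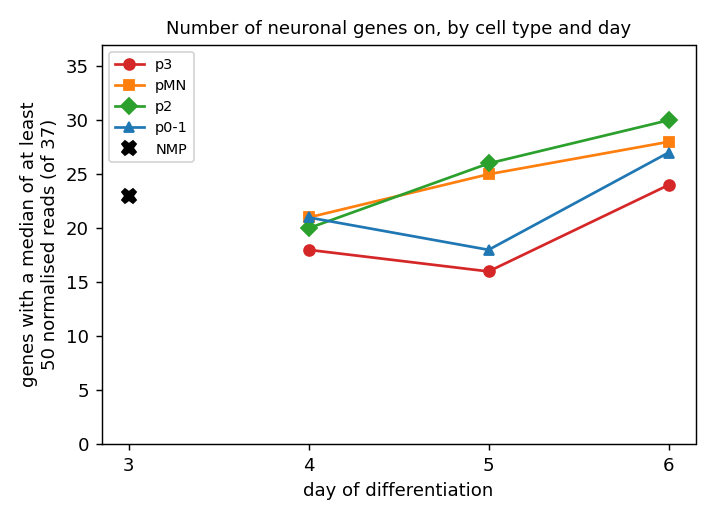
Number of the 37 genes on (y axis, a median of at least 50 normalised reads) by day of differentiation (x axis) in NMPs and the 4 cell types. On day 5 the pMN and p2 points (25 and 26) stand above the p3 and p0-1 points (16 and 18), and on day 6 p3 is lowest with 24 (27 without its library of fewest genes).

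There were 12 genes off in NMPs and in all 4 types on day 4, which is where an order of onset can be seen. On day 5, 5 of them were on in p2 (Dcx, Nhlh1, Ebf3, Onecut1 and Insm1), 4 in pMN (Stmn4, Nhlh1, Nhlh2 and Onecut1), 2 in p3 (Ebf3 and Insm1) and 1 in p0-1 (Insm1). On day 6, 3 more were on in p2, 4 in pMN, 3 in p3 and 4 in p0-1, while Stmn4 was no longer on in pMN. Among these 12, Syn1, which encodes the vesicle protein synapsin 1, and Myt1l were on in no type through day 6. Dcx reached its threshold in p2 on day 5 and in the other 3 types on day 6. Nhlh2 reached it in pMN on day 5, in p2 and p0-1 on day 6, and not in p3. The order, and which genes counted as off, depended on the threshold. At 20 normalised reads, Nefm, Ebf1 and Ebf3 were already on in NMPs. On day 4 Insm1 was then on in p2 and p0-1, Syn1 in pMN and Myt1l in p0-1. On day 5 Dcx and Ebf1 were on in p0-1, Ebf3 and Myt1 in pMN and Onecut1 in p3 as well. Onset was not counted over all genes tested, so no share at large stands beside these counts.

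Tests of the step from day 4 to day 5 found few of the 37 genes. In pMN, where 0.695% of all genes were called, Tagln3 rose (log2 change 4.60 ± 0.67 SE, adjusted p = 1.20e-05). In p3, where 6.41% were called, Tagln3 (6.28, adjusted p = 4.73e-09), Map2 (5.91, adjusted p = 0.00048) and Kif1a (4.26, adjusted p = 1.17e-07) rose and Scg3 fell (-5.57, adjusted p = 0.00693). Except for Tagln3, these p3 calls were lost without 1 library. On day 4 Kif1a had 0 normalised reads in the library of p3 at 100 nM and 1580.5, 1310 and 842 in the 3 at 500 nM. Without the first, Kif1a stood at -0.86 (adjusted p = 0.654), Map2 at 3.07 (adjusted p = 0.332) and Scg3 at -5.30 (adjusted p = 0.077), all genes called in that step fell from 895 to 41, and Tagln3 was still called. The call for Scg3 was also lost without p3 at 500 nM on day 4, replicate 1 (-5.38, adjusted p = 0.0162) or replicate 3 (-5.45, adjusted p = 0.0139), without p3 at 100 nM on day 5, replicate 2 (-5.10, adjusted p = 0.0187) or replicate 3 (-5.10, adjusted p = 0.0193), and without p3 at 500 nM on day 5, replicate 3 (-4.21, adjusted p = 0.0371).

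In p2 and p0-1, where 0.193 and 0.337% of all genes were called, limma called 0 of the 37 genes from day 4 to day 5. At an unadjusted p below 0.05 there were 9 and 9, edgeR called 0 and 0, and DESeq2 called 5 and 4. Tagln3 had log2 changes of 2.60 ± 0.77 SE in p2 (adjusted p = 0.146) and 1.08 ± 0.64 in p0-1 (adjusted p = 0.616). Its medians on day 4 were 53.3 normalised reads in p3, 133.7 in pMN, 126.0 in p2 and 297.4 in p0-1, and on day 5 they were 1350, 1027, 1129 and 575. Tagln3 was thus highest in p0-1 on day 4 and lowest there on day 5.

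Tagln3 on day 4 had 5.12, 15.6, 90.97 and 126 in p3, 0, 199.9, 87.8 and 179.6 in pMN, 285, 83.2 and 126 in p2, and 260.5, 398, 169, 297 and 364 in p0-1, in normalised reads by library with the lower SAG concentration first. By day 5 Tagln3 ran from 1088 to 2569 in p3 (median 1349.5), 615 to 2043 in pMN (median 1027), 513 to 1712 in p2 (median 1129) and 327 to 1571 in p0-1 (median 575). On day 6 Tagln3 held 2327, 2825, 2152, 1780.0 and 1849.9 in p3, 1375, 775, 2290.2, 2593.5 and 2121 in pMN, with 759.5 to 2798 in p2 (median 1231) and 619 to 1254 in p0-1 (median 821). Every p3, pMN and p2 library of day 5 stood above every library of day 4 in its type.

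From day 5 to day 6 limma called 0 of the 37 genes in each type, where 0.0215% of all genes were called in p3, 0.0286% in pMN, 0.15% in p2 and 0.0645% in p0-1. At an unadjusted p below 0.05 there were 11, 4, 4 and 12, edgeR called 0 in each, and DESeq2 called 5, 1, 2 and 3. The median log2 change of the 37 genes was 1.34 in p3, 1.28 in pMN, 0.92 in p2 and 1.57 in p0-1, and over all genes tested it lay between -0.15 and 0.07. Positive changes were seen for 29, 31, 32 and 28 of the 37 genes in the 4 types. The smallest adjusted p values were those of Gap43, a growth cone gene, in p2 (4.19, adjusted p = 0.0421) and the neurofilament gene Nefm in p3 (5.57, adjusted p = 0.0506).

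On day 4 itself each type was compared with the mean of the other 3. For p3, 7.2% of all genes were called, 979 of 1005 of them lower, and Kif1a (log2 change -4.51, adjusted p = 3.76e-09) and Tagln3 (-2.77, adjusted p = 0.00301) were lower. Without p3 at 100 nM on day 4, replicate 3, the 1005 became 10, Kif1a was at 0.61 and Tagln3 at -1.15 (adjusted p = 0.950), and without p3 at 500 nM on day 4, replicate 1, Tagln3 was at -2.32 (adjusted p = 0.0187). For pMN, p2 and p0-1, where 0.516, 0.0358 and 0.523% of all genes were called, limma called 0 of the 37. At an unadjusted p below 0.05 there were 2, 2 and 6, edgeR called 0, 0 and 2, and DESeq2 called 5, 1 and 9.

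Kif1a on day 4 had 0, 1580.5, 1309.6 and 842 in p3, 787, 1091, 567 and 741 in pMN, 603, 844 and 954 in p2, and 912, 729, 820.0, 956 and 939 in p0-1, in normalised reads by library. By day 5 Kif1a ran from 450.1 to 1123 in p3 (median 641), 426 to 783 in pMN (median 526), 165 to 978 in p2 (median 466) and 219.9 to 596 in p0-1 (median 422). On day 6 Kif1a held 986, 189, 514, 404.5 and 685 in p3, 488, 134.5, 665.5, 219 and 755 in pMN, with 81.5 to 990.5 in p2 (median 357) and 195 to 520.4 in p0-1 (median 388). The 4 types overlapped on each day, and the single p3 library at 0 on day 4 stood apart.

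The size of the rise was also compared between domains, as the change from day 4 to the mean of days 5 and 6 in pMN minus that in each other type. Since the days are averaged, this comparison does not bear on the order of onset between them. Against p2 no gene at all was called (0%), and 0.0143% were called against p0-1. Limma called 0 of the 37 genes in both, with 5 and 7 at an unadjusted p below 0.05, 0 and 0 by edgeR and 2 and 5 by DESeq2. Against p3, where 3.24% were called, the difference was negative for Kif1a (log2 difference -4.79, adjusted p = 2.35e-06) and Map2 (-8.13, adjusted p = 0.000188), that is, the change was lower in pMN. Without p3 at 100 nM on day 4, replicate 3, Kif1a was at 0.32 and Map2 at -5.29 (adjusted p = 0.380).

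Which domain had most was read from the mean log2 level over days 5 and 6 (11 libraries of p3, 11 of pMN, 12 of p2 and 12 of p0-1). The highest mean was in pMN for 20 of the 37 genes, in p2 for 8, in p3 for 6 and in p0-1 for 3. The lowest was in p3 for 18, in p0-1 for 12, in pMN for 4 and in p2 for 3. The 6 genes highest in p3 were Map2, Nefm, Dpysl5, Kif1a, Tagln3 and Gng3, and 0 of the 12 regulators were among them. These are orders of means, and the pairwise tests called few of the differences behind them. No such order was made over all genes tested, so no share at large stands beside these counts. The libraries include those of p3 with 10338 and 10571 genes detected and that of p2 with 10541. The order was not repeated without them. The pairs share libraries with each other and are not independent.

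Between p3 and pMN, where 0.695% of all genes were called, 3 of the 37 were called. Map2 was higher in p3, and Nhlh2 and Cntn2 were lower. Map2 ran from 142.9 to 2712 normalised reads in p3 (median 669) and from 0 to 265.5 in pMN (median 31.1). All 11 p3 libraries stood above the pMN median, and the ranges overlapped between 142.9 and 265.5. The means were 835 ± 678 and 80.8 ± 87.9 (SD, n = 11 each), and the log2 change was 4.59 ± 0.76 SE (adjusted p = 9.72e-05). On day 6 the p3 libraries held 669 to 2712 and the pMN libraries 0 to 153, without overlap. The call held without each of the 22 libraries in turn.

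Map2 was the one gene of the set that limma called higher in p3 than in another type, and DESeq2 also called Tagln3, Myt1 and Snap25 higher in p3 than in p0-1. For Snap25 the levels went the other way, with means of 40.6 normalised reads in p3 and 109.6 in p0-1. For that gene 8 of 11 p3 libraries were below the p0-1 median, so its DESeq2 call is not read as a higher level. The medians of Map2 over days 5 and 6 were 669 normalised reads in p3, 232 in p0-1, 164 in p2 and 31.1 in pMN. The log2 change of Map2 was 2.55 for p3 over p2 (adjusted p = 0.0353), 2.25 for p3 over p0-1 (adjusted p = 0.0749) and -2.34 for pMN over p0-1 (adjusted p = 0.0923), so limma called none of these steps, while DESeq2 called p3 over p2 and pMN under p0-1. In pMN the medians of Map2 were 133.1 on day 4, 44.0 on day 5 and 30.9 on day 6, while in p3 they were 84.6, 521 and 1000.4.

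Map2 on day 4 had 0, 1.30, 168 and 345 in p3, 230.5, 19.2, 35.6 and 279 in pMN, 7.36, 198.5 and 53.5 in p2, and 131, 149, 171, 38.1 and 212 in p0-1, in normalised reads by library. By day 5 Map2 ran from 143 to 686 in p3 (median 521), 4.03 to 265.5 in pMN (median 44.02), 24.3 to 331 in p2 (median 118) and 2.03 to 251 in p0-1 (median 89.6). On day 6 Map2 held 1000.4, 861, 1083, 669 and 2712 in p3, 153, 153, 25.9, 30.9 and 0 in pMN, with 6.62 to 867.5 in p2 (median 282) and 214 to 750.5 in p0-1 (median 418). On day 6 every p3 library stood above every pMN library, and the p2 and p0-1 libraries overlapped p3.

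Nhlh2 ran from 0 to 171 normalised reads in p3 (median 0, 6 of 11 libraries at 0) and from 0 to 1189 in pMN (median 265.2, 1 of 11 at 0). All 11 p3 libraries were below the pMN median. The means were 32.5 ± 64.1 and 371 ± 347 (SD, n = 11 each), with a log2 change of -5.19 ± 1.09 SE (adjusted p = 0.00362). The call was lost without pMN at 100 nM on day 5, replicate 3 (-4.82, adjusted p = 0.0106), without p3 at 500 nM on day 6, replicate 1 (-4.76, adjusted p = 0.0223) or without pMN at 500 nM on day 6, replicate 3 (-5.01, adjusted p = 0.0168). Nhlh2 was also not called in this pair with edgeR or with the compared libraries alone. In p2 Nhlh2 ran from 0 to 818 (median 14.8) and in p0-1 from 0 to 398 (median 116.1), between which and p3 no difference was called. Its promoter, with the CAGATG E-box printed above, has no separate readout here.

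Nhlh2 had 0 normalised reads in all 16 libraries of day 4. By day 5 Nhlh2 ran from 0 to 18.96 in p3 (median 0), 0 to 265 in pMN (median 170.5), 0 to 132.5 in p2 (median 6.999) and 0 to 123 in p0-1 (median 0). On day 6 Nhlh2 held 151, 0, 0.972, 15.1 and 171 in p3, 497, 306, 773.5, 436 and 1189 in pMN, with 0 to 818 in p2 (median 134) and 4.51 to 398 in p0-1 (median 156). The gene thus went from no reads on day 4 to reads in every pMN and p0-1 library on day 6, with libraries at 0 left in p3 and p2.

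Cntn2 ran from 0.994 to 2759 normalised reads in pMN (median 561), from 0 to 752 in p3 (median 1.75), from 0 to 605 in p2 (median 33.6) and from 0 to 164.5 in p0-1 (median 2.50). On day 6 the 5 pMN libraries held 789 to 2759, above every library of p3, p2 and p0-1. The log2 change of Cntn2 from pMN to p3 was -4.63 ± 0.98 SE (adjusted p = 0.00394), with 9 of 11 p3 libraries below the pMN median. That call was lost without any 1 of 7 libraries, namely pMN at 100 nM on day 5, replicates 1 and 3, pMN at 500 nM on day 5, replicates 1 and 3, p3 at 100 nM on day 6, replicate 2, p3 at 500 nM on day 6, replicate 3, and pMN at 500 nM on day 6, replicate 3 (-4.54 to -4.09, highest adjusted p = 0.0248), and with the compared libraries alone. Against p0-1, Cntn2 was higher in pMN by 5.66 ± 0.95 (adjusted p = 8.40e-05), a call that held without each of 23 libraries. Against p2 it was higher in pMN by 3.89 ± 0.95, which limma did not call (adjusted p = 0.0473) and DESeq2 did.

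Cntn2 on day 4 had 0, 1.30, 0 and 0 in p3, 0, 1.60, 0 and 24.8 in pMN, 1.05, 20.1 and 0 in p2, and 0, 32.9, 0, 0 and 2.76 in p0-1, in normalised reads by library. By day 5 Cntn2 ran from 0 to 2.19 in p3 (median 0.874), 0.995 to 561 in pMN (median 294), 0 to 63.5 in p2 (median 1.53) and 0 to 2.18 in p0-1 (median 1.03). On day 6 Cntn2 held 12.9, 0, 636, 752 and 212 in p3, 1518, 789, 1324, 1703 and 2759 in pMN, with 2.12 to 605 in p2 (median 307) and 2.83 to 164.5 in p0-1 (median 24.4). On day 5 the pMN libraries were split, with the lowest near 1 and the highest above 500, while those of the other types stayed low.

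With the 4 libraries that detected the fewest genes left out together, Map2 was still called between p3 and pMN, while Nhlh2 and Cntn2 were not. The median log2 change of the 37 genes between p3 and pMN was -1.10, against -0.09 over all genes tested, and 27 of the 37 were negative. Genes detected per library had medians of 12474 in p3 and 12991 in pMN over days 5 and 6. With the number of genes detected as a covariate, all 3 genes were still called between p3 and pMN. The part of detection in the lower levels of p3 was not tested beyond these values.

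Between p3 and p2, where 1.27% of all genes were called, Dcx and Syt4 were lower in p3. Dcx ran from 0 to 151 normalised reads in p3 (median 0, 6 of 11 libraries at 0) and from 31.6 to 2747 in p2 (median 372, 0 of 12 at 0). The means were 35.2 ± 52.0 (SD, n = 11) and 655 ± 781 (SD, n = 12), and the log2 change was -5.46 ± 1.07 SE (adjusted p = 0.00102). All 11 p3 libraries were below the p2 median although the ranges overlapped, and the call held without each of 23 libraries and with DESeq2. With edgeR, which called 0 of the 37 genes in this pair, Dcx was not called. On day 6 the 6 p2 libraries held 409 to 2747, the p0-1 libraries 58.4 to 566, the pMN libraries 0 to 177 and the p3 libraries 0 to 151. Dcx was also lower in pMN than in p2 (-4.47 ± 1.07), which limma did not call (adjusted p = 0.0373).

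Dcx on day 4 had 0, 0, 0 and 83.5 in p3, 0, 0.800, 0 and 0 in pMN, 0 in all 3 p2 libraries, and 0, 0.913, 0, 0 and 0 in p0-1, in normalised reads by library. By day 5 Dcx ran from 0 to 91.95 in p3 (median 0), 0 to 163 in pMN (median 0.536), 31.6 to 335 in p2 (median 156) and 0 to 137 in p0-1 (median 39.8). On day 6 Dcx held 0, 0, 151, 51.6 and 81.99 in p3, 59.5, 0, 177, 107 and 127.5 in pMN, with 409 to 2747 in p2 (median 804) and 58.4 to 566 in p0-1 (median 289). Every p2 library held reads from day 5 on, whereas each of the other types had libraries at 0 on day 5.

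Syt4 ran from 0 to 625 normalised reads in p3 (median 24.1, 5 of 11 libraries at 0) and from 18.9 to 2275 in p2 (median 529). It ran from 12.9 to 892 in pMN (median 234.8) and from 0 to 896 in p0-1 (median 218). The p3 mean was 102 ± 192 (SD, n = 11) and the p2 mean 835 ± 787 (SD, n = 12). Between p3 and p2 the log2 change was -5.23 ± 1.10 SE (adjusted p = 0.00226), with 10 of 11 p3 libraries below the p2 median. Without p3 at 500 nM on day 6, replicate 3, the change was -4.21 and the call was lost (adjusted p = 0.0307). Syt4 was also not called with edgeR, with DESeq2 or with the compared libraries alone. The p2 libraries thus had the highest Dcx and Syt4, whereas pMN had the highest Cntn2 and Nhlh2.

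Syt4 on day 4 had 19.02, 66.3, 0 and 154 in p3, 21.6, 111, 0 and 87.01 in pMN, 83.1, 75.9 and 0.907 in p2, and 12.04, 1.83, 0, 1.23 and 9.19 in p0-1, in normalised reads by library. By day 5 Syt4 ran from 0 to 95.3 in p3 (median 0), 12.9 to 235 in pMN (median 112), 18.9 to 676 in p2 (median 279) and 0 to 295.5 in p0-1 (median 33.7). On day 6 Syt4 held 24.1, 624.5, 64.2, 277.5 and 0 in p3, 741, 892, 355, 264 and 411 in pMN, with 439.5 to 2275 in p2 (median 1437) and 84.2 to 896 in p0-1 (median 474). The p3 libraries were the only ones with a median of 0 on day 5, and on day 6 they still ranged from 0 upwards.

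Between pMN and p0-1, where 0.96% of all genes were called, 4 of the 37 genes were higher in pMN, namely Cntn2, Nhlh1, Myt1 and Rbfox3. Nhlh1 ran from 20.9 to 503 normalised reads in pMN (median 81.0) and from 0 to 49.0 in p0-1 (median 11.3). The log2 change of Nhlh1 was 3.68 ± 0.84 SE (adjusted p = 0.00641), and all 11 pMN libraries were above the p0-1 median. The call for Nhlh1 was lost without 13 of the 23 libraries in turn (3.30 to 3.69, highest adjusted p = 0.0406, without pMN at 500 nM on day 6, replicate 3). Nhlh1 was also not called with edgeR, with DESeq2 or with the compared libraries alone.

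Nhlh1 on day 4 had 0 in all 4 p3 libraries, 4.001, 0, 0 and 20.8 in pMN, 2.10, 0 and 0 in p2, and 1.09, 0, 0.911, 0 and 1.84 in p0-1, in normalised reads by library. By day 5 Nhlh1 ran from 0 to 96.6 in p3 (median 1.75), 20.9 to 129 in pMN (median 67.4), 7.10 to 89.5 in p2 (median 59.9) and 0 to 48.97 in p0-1 (median 6.33). On day 6 Nhlh1 held 4.02, 0.929, 10.7, 65.3 and 30.8 in p3, 80.99, 77.5, 82.1, 89.6 and 503 in pMN, with 4.77 to 197.5 in p2 (median 124) and 0 to 45.6 in p0-1 (median 15.2). Every pMN and p2 library held reads on days 5 and 6, and p3 and p0-1 libraries were scattered around low values.

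Rbfox3 ran from 133.5 to 1203 normalised reads in pMN (median 297.4) and from 9.22 to 278 in p0-1 (median 56.9). Its log2 change between pMN and p0-1 was 2.49 ± 0.58 SE (adjusted p = 0.00867), and all 11 pMN libraries were above the p0-1 median. Myt1 ran from 0 to 262.5 in pMN (median 26.7, 2 of 11 libraries at 0) and from 0 to 110.0 in p0-1 (median 0, 10 of 12 at 0). The log2 change of Myt1 was 3.97 ± 0.93 (adjusted p = 0.00876), with 9 of 11 pMN libraries above the p0-1 median. Both calls stood just inside the threshold. That for Rbfox3 was lost without 16 of the 23 libraries in turn (2.22 to 2.56, highest adjusted p = 0.0615) and that for Myt1 without 19 (3.49 to 4.06, highest adjusted p = 0.0567), both highest without pMN at 500 nM on day 6, replicate 3. Rbfox3 was called in all 12 other settings of the processing and Myt1 in 6 of 11, edgeR not among them.

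Rbfox3 on day 4 had 341, 287, 72.9 and 120.4 in p3, 12, 265, 339.8 and 109 in pMN, 111.5, 203 and 185 in p2, and 153, 50.2, 155, 269 and 88.2 in p0-1, in normalised reads by library. By day 5 Rbfox3 ran from 7.43 to 318 in p3 (median 86.9), 254 to 441.5 in pMN (median 334), 36.96 to 159 in p2 (median 101) and 9.22 to 97.5 in p0-1 (median 50.1). On day 6 Rbfox3 held 47.5, 0, 40.8, 183 and 272 in p3, 169, 133.5, 681, 269.5 and 1203 in pMN, with 115 to 379 in p2 (median 266) and 33.5 to 278 in p0-1 (median 99.7). On day 5 every pMN library stood above every p2 and p0-1 library, whereas the types overlapped on days 4 and 6. Day 4 overlapped day 6 in each type.

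Myt1 on day 4 had 0, 0, 0 and 6.80 in p3, 0 in all 4 pMN libraries, 0, 11.9 and 0 in p2, and 0, 0, 0, 0 and 42.3 in p0-1, in normalised reads by library. By day 5 Myt1 ran from 0 to 12.4 in p3 (median 0), 0 to 33.4 in pMN (median 25.1), 0 to 25.6 in p2 (median 0) and 0 to 0 in p0-1 (median 0). On day 6 Myt1 held 128, 0, 40.8, 8.61 and 78.9 in p3, 25.4, 0, 262.5, 27.03 and 254 in pMN, with 0 to 223 in p2 (median 67.9) and 0 to 110.0 in p0-1 (median 0). Its level was low throughout, and p0-1 had no reads in any library on day 5.

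**Figure D4:**
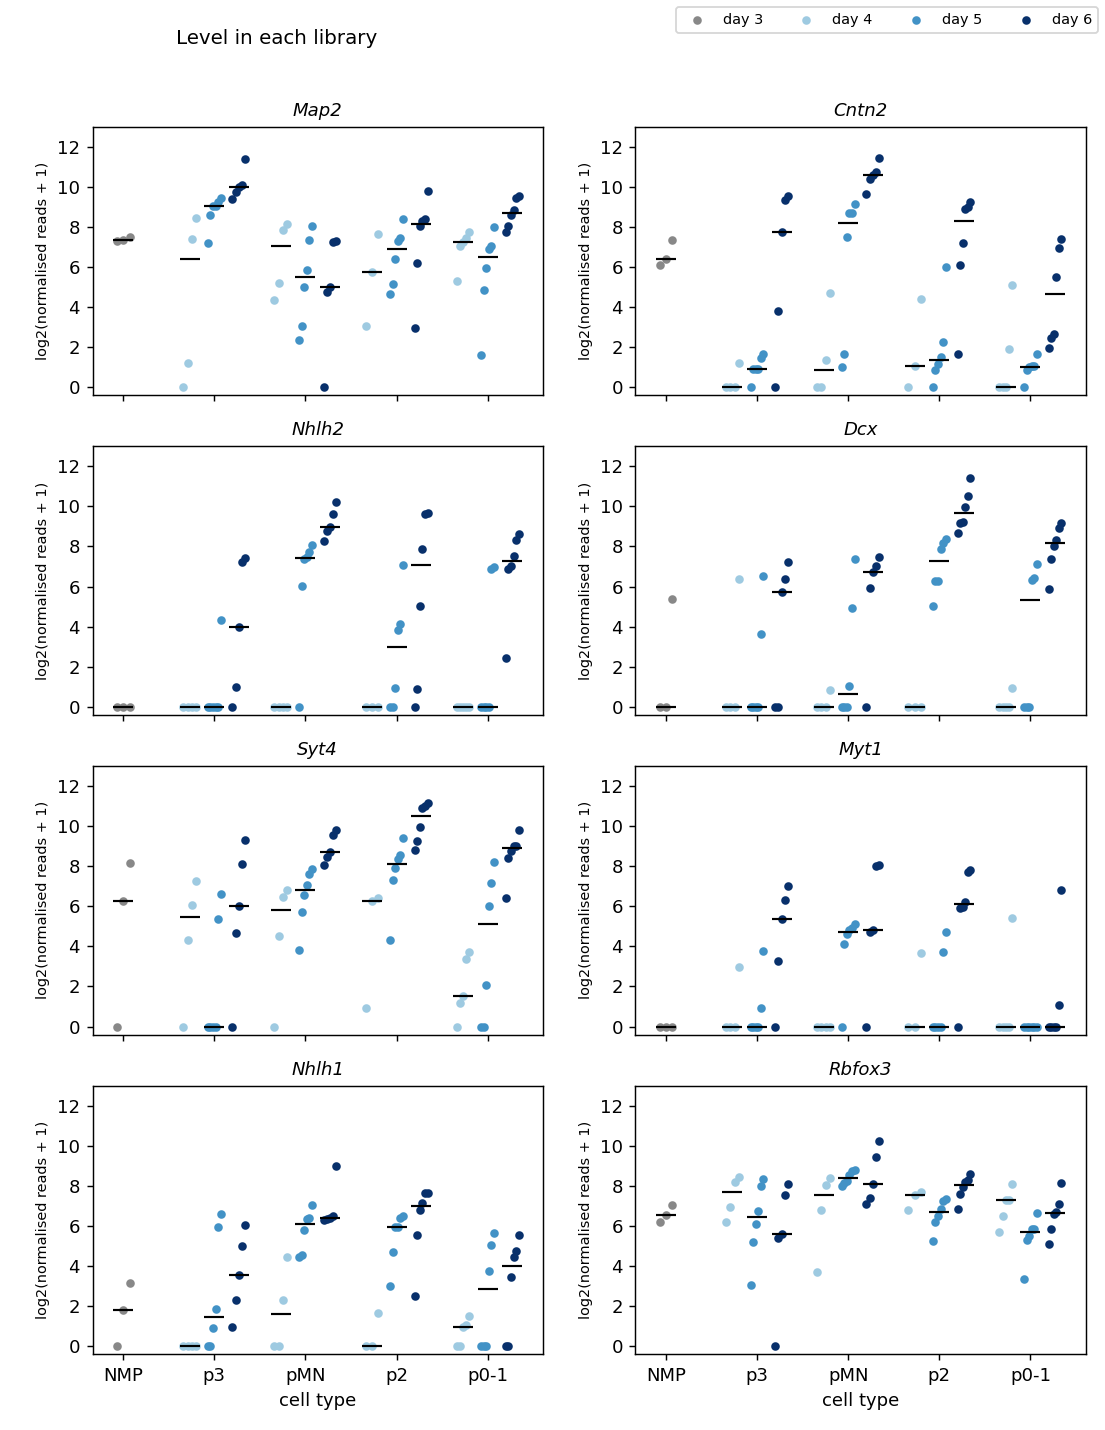
Level in each library (points, log2(normalised reads + 1)) by cell type (x axis) and day (colour) for the 8 genes called between cell types, with a bar at the median of each type and day. Map2 is high in p3 and low in pMN, Cntn2 and Nhlh2 are highest in pMN and Dcx and Syt4 in p2, with overlap between types.

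In the remaining pairs limma called 0 of the 37 genes, where 1.43% of all genes were called between p3 and p0-1, 0.107% between pMN and p2 and 0.322% between p2 and p0-1. At an unadjusted p below 0.05 there were 10, 8 and 8, edgeR called 0, 0 and 0, and DESeq2 called 7, 2 and 2. The median log2 change of the 37 genes was -0.29 between p3 and p0-1, 0.35 between pMN and p2 and 0.82 between p2 and p0-1, against -0.07, 0.09 and -0.05 over all genes tested. Tubb3, the tubulin often used to mark neurons, had medians over days 5 and 6 of 596 normalised reads in p3, 461.5 in pMN, 671 in p2 and 312.5 in p0-1. No pair was called for Tubb3 (adjusted p from 0.580 to 0.974). A p that misses the threshold does not show that these levels were alike.

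Tubb3 on day 4 had 1.46, 639.5, 36.9 and 405 in p3, 0, 348, 13.04 and 156 in pMN, 238, 204 and 0 in p2, and 272.5, 34.7, 127, 296 and 178 in p0-1, in normalised reads by library. By day 5 Tubb3 ran from 9.68 to 719 in p3 (median 344), 0 to 529 in pMN (median 301), 387 to 900.1 in p2 (median 485) and 10.9 to 1027.5 in p0-1 (median 112). On day 6 Tubb3 held 1706, 999.9, 596, 1019 and 642 in p3, 461.5, 206, 705, 891 and 738 in pMN, with 507 to 1366 in p2 (median 835) and 263 to 674 in p0-1 (median 515). The lowest library was at most 34.7 on day 4 in each type and at most 10.9 on day 5 in p3, pMN and p0-1, and on day 6 every library held at least 205.9.

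Stmn2 on day 4 had 124, 452, 455 and 276 in p3, 186.5, 333, 708 and 162 in pMN, 242, 525 and 365 in p2, and 618, 248, 517.5, 659.8 and 374 in p0-1, in normalised reads by library. By day 5 Stmn2 ran from 0 to 129.6 in p3 (median 2.60), 0 to 233 in pMN (median 137), 0 to 212 in p2 (median 76) and 0 to 201 in p0-1 (median 53.6). On day 6 Stmn2 held 149, 130.1, 0, 179 and 134 in p3, 191, 138, 92.9, 112 and 348 in pMN, with 0 to 246 in p2 (median 80.5) and 16.97 to 146 in p0-1 (median 105). The highest values of Stmn2 were those of day 4 in each type, and the day 5 libraries of every type included zeros.

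**Figure D5:**
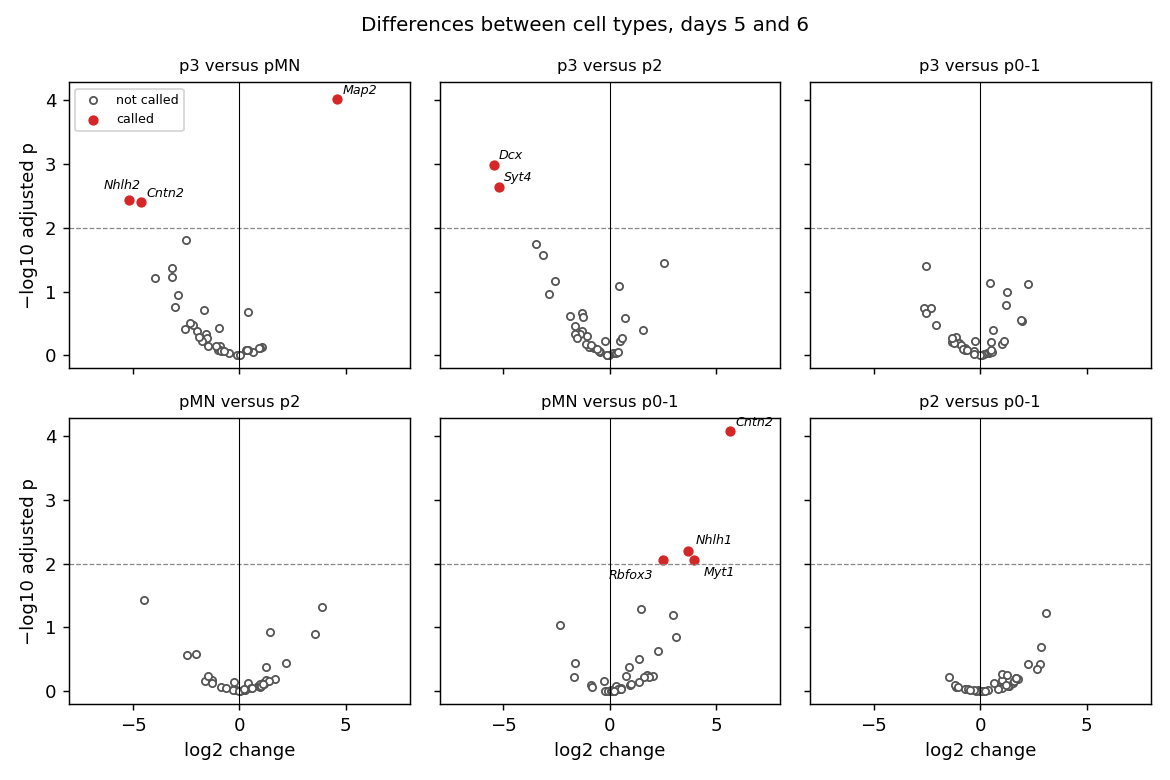
Log2 change (x axis) and -log10 adjusted p (y axis) of the 37 genes in the 6 pairs of cell types over days 5 and 6, with the adjusted p of 0.01 as a dashed line. Filled points were called, and they are 3 genes between p3 and pMN, 2 between p3 and p2, 4 between pMN and p0-1 and 0 in the other 3 pairs.

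The 25 genes not yet given by library are described by their medians on day 6. Gap43 ran from 184 normalised reads in p3 to 2024 in p0-1. Dpysl3 ran from 738 in p0-1 to 1336 in pMN, Dpysl5 from 1741 in p0-1 to 2241.5 in p3, and the third collapsin response mediator Crmp1 from 342 in p0-1 to 944 in pMN. Kif5c ran from 1716 in p3 to 2304 in p0-1. These axon growth genes were therefore on in all 4 types.

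The neurofilament genes were less alike. Nefl ran from 293.5 in p2 to 532.0 in pMN and Ina from 198 in p3 to 578 in p2, while Nefm was at a median of 119.9 in p3 and 0 in the other 3 types. Stmn3 ran from 180.2 in p2 to 339.8 in p0-1 and Stmn4 from 8.82 in p2 to 35.5 in p0-1. The tau gene Mapt ran from 6.47 in p2 to 20.2 in p0-1. All but Mapt and Stmn4 were thus on in at least 1 type.

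Among the genes of synapse and secretion, Scg3 ran from 92.5 normalised reads in p3 to 625.5 in p2, Snap25 from 21.5 in p3 to 174 in p0-1 and Syt1 from 11.5 in p3 to 103 in p0-1. Gng3, a G protein gamma subunit of neurons, ran from 114.5 in p0-1 to 182 in p3. Syn1 ran from 0 in p3 to 23.4 in pMN. The lowest median of 4 of these 5 genes was that of p3. L1cam, which had 142.7, 172 and 189 in the NMP libraries in order of size, was at medians of 0.929 to 7.69 on day 6.

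Among the regulators, Ebf1 ran from 5.64 normalised reads in p0-1 to 177.5 in p2, Ebf2 from 44.1 in p3 to 421 in p2 and Ebf3 from 58.7 in p0-1 to 114.6 in p2. Onecut1 ran from 75.1 in p0-1 to 256 in pMN and Onecut2 from 161 in p3 to 809 in p2. Insm1 ran from 63.7 in pMN to 269.9 in p2, Btg2 from 837 in p0-1 to 2330.5 in pMN, and Myt1l was at 0 in all 4. The highest median was in p2 for 5 of these 8 genes, in pMN for 2 and in none for Myt1l.

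Levels of different genes were compared per length, as median normalised reads per kilobase of exon on day 6. Tagln3 stood at 1850.4 in p3, 1823 in pMN, 1058 in p2 and 706 in p0-1. The highest medians of Cntn2 (159 in pMN), Dcx (87.8 in p2) and Map2 (99.8 in p3) were far below it. The genes that differed most between domains were therefore not those with most RNA. Summed over the 37 genes, the normalised reads had medians of 15738.5 in p3, 19335 in pMN, 19583 in p2 and 14035.0 in p0-1 on day 6, where every p2 library stood above every p0-1 library and the other pairs of types overlapped.

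For the SAG concentration within a cell type, limma called 0 of the 37 genes for p0-1 at 10 against 0 nM, p2 at 100 against 10 nM, pMN at 500 against 100 nM and p3 at 500 against 100 nM, where 0.0143, 0.0358, 0 and 0.0286% of all genes were called. At an unadjusted p below 0.05 there were 2, 6, 0 and 4, edgeR called 0 in each, and DESeq2 called 2, 3, 1 and 3. The smallest adjusted p values were those of Mapt, the tau gene, in p2 (log2 change -5.33, adjusted p = 0.141) and Rbfox3 in p3 (2.78, adjusted p = 0.185).

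Proneural genes, progenitor genes and markers of other cell types were read beside these differences, with calls by limma. Neurog2 had medians over days 5 and 6 of 1134 normalised reads in pMN, 535.5 in p2, 109.8 in p0-1 and 86.1 in p3. Its level was below that of pMN in p3 (log2 change -4.30, adjusted p = 3.21e-05) and also below that of p2 (-2.75, adjusted p = 0.007), and pMN was above p0-1 (4.14, adjusted p = 2.17e-05). Neurod1, a neuronal differentiation factor, was lower in p3 than in pMN (-3.47, adjusted p = 0.00362) and p2 (-3.95, adjusted p = 0.00029). Of the 15 proneural and cell cycle exit genes tested, 4 were lower in p3 than in pMN, 3 were lower in p3 than in p2 and 3 were higher in pMN than in p0-1. These are the 3 pairs in which genes of the set were called.

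Of the 9 progenitor genes, 1 was called between p3 and pMN, 2 between p3 and p2 and 1 between pMN and p0-1. Hes5, a target of Notch signalling that holds progenitors back from differentiation, ran from 1246 to 6450 normalised reads in p3 (median 4494), 6987 to 10681 in pMN (median 9699), 6786 to 11844 in p2 (median 9078) and 1227 to 10028 in p0-1 (median 5472). Every p3 library was thus below every pMN and p2 library, with log2 changes of Hes5 of -1.31 against pMN (adjusted p = 3.21e-05) and -1.30 against p2 (adjusted p = 1.18e-05). Hes1, a related repressor, was higher in p3 than in p2 (1.47, adjusted p = 0.00204) and stood at 1.03 against pMN (adjusted p = 0.0902). The receptor gene Notch1 was higher in pMN than in p0-1 (1.68, adjusted p = 5.41e-06) and stood at -1.02 in p3 against pMN (adjusted p = 0.021). Sox2 was at 0.34 between p3 and pMN (adjusted p = 0.579). The part of these genes in the differences of the set was not tested.

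The motor neuron list of 8 genes had median sums of 2162 normalised reads in pMN (range 1160 to 6851), 719 in p2 (141.5 to 1156), 615 in p3 (71.3 to 2608) and 292 in p0-1 (0 to 605) over days 5 and 6. It was called higher in pMN than in p0-1 for 6 of 8 genes. Isl1, a homeodomain gene of motor neurons, had medians of 888 in pMN, 74.3 in p3, 4.12 in p2 and 0 in p0-1. Of the 5 floor plate markers, 4 were called higher in p3 than in pMN and 5 than in p2. Foxa2, a defining gene of the floor plate, had a median of 906.5 in p3 and 88.8 in pMN. The paper also reports Foxa2 expression in p3 progenitors themselves. Set against a floor plate differentiation, it describes floor plate markers as little expressed in its spinal cord cultures on day 6. In the pair of p3 and pMN, 0 of 10 proliferation genes were called by limma (2 at an unadjusted p below 0.05). The part of motor neuron or floor plate RNA in the differences of the set was not tested.

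The 37 genes did not follow 1 profile. Over the 24 progenitor groups, Pearson's r with the mean of the other members was 0.83 for Cntn2, 0.802 for Onecut2 and 0.79 for Nhlh2, and -0.321 for Myt1l, -0.29 for Dpysl5 and -0.201 for Stmn3. Outside the set, the genes whose profile was most like the mean of the members were Rhbdl3 (r = 0.884), Prmt8 (0.87), Slc1a2 (0.854), Btg1 (0.846) and Glra1 (0.834). These values describe groups that share a day, a cell type or a SAG concentration. Nefm, Ina, Syn1 and Gng3 overlap a gene on the opposite strand, and whether reads were counted by strand is not given in the sources used here, so reads of the partners cannot be told apart.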

How the data were processed

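RNA was measured in 65 libraries of sorted progenitors and NMPs. Per the study's methods, the authors aligned reads with STAR in an nf-core pipeline to mm10 with spike-ins, counted them per gene with featureCounts over refGene, ignored duplicates and removed libraries that failed quality criteria. The deposited values are a gene-level signal, namely counts that the authors divided by 1 size factor per library, and 100.0% of values above 0 were whole reads within 0.01 of a read. The deposited annotation gave positions and exon lengths, and its values are coordinates. Intervals were not drawn from counts, since amplified reads without molecular identifiers are not independent molecules.

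The test was limma (version 3.58.1, R 4.3.3) on log2(value + 1), with a mean for each of 25 groups, over the 13964 genes whose mean reached 10, with 40 residual degrees of freedom and Benjamini-Hochberg adjustment over those genes. This scale understates changes of low genes. Comparisons averaged groups with equal weight. The script was tested on simulated data. Alternatives were edgeR 4.0.16 and DESeq2 1.42.0 on the recovered reads, another pseudocount, filters, array weights and quantile normalisation. Others were genes detected as a covariate, the compared libraries alone, a replicate block and each library left out.

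The 37 genes and the other lists were chosen with earlier results of these data known. The genes described in full were Tubb3, Dcx and Stmn2 and those of the set called between cell types over days 5 and 6 or on day 4, at most 14. Genes of the other lists were named where called between cell types, at most 4 a list by size of change, with Sox2, Neurog2 and Elavl3. The 5 genes outside the set had the highest r with its mean profile among genes whose mean reached 100. The comparisons of day 6 with day 4 and with NMPs, and the setting that left out the 4 libraries with the fewest genes, were added after values had been seen. Libraries of 1 group were separate differentiations. Same-numbered libraries deviated together only weakly (median correlation 0.015, 0.734% of pairs above 0.1, against -0.007 and 0% for different numbers). Within a day the medians were 0.03 and -0.017. The number was not used as a pairing in the main fit. The paper describes comparing cell types from within 1 dish, so types at 1 SAG concentration may share a differentiation. These correlations pool pairs over SAG concentrations and cannot exclude such a pairing.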

Additional observations from a re-analysis of the deposited data

Results flagged for a closer look

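The rise from day 4 to days 5 and 6 differed between pMN and p3 by the test of the difference itself for Kif1a (log2 difference, pMN minus p3, -4.79) and Map2 (-8.13). On day 4, Kif1a had 0 normalised reads in the single p3 library at 100 nM SAG and 1580.5, 1310 and 842 in those at 500 nM, and Map2 had 0 against 1.30, 167.8 and 345. Without that library the difference was 0.32 for Kif1a and -5.29 for Map2 (adjusted p = 0.380), and the calls over all genes went from 452 to 4. The cause was not tested. Groups held 3 or fewer libraries, so no library could be set apart within a group by its gap to the others.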

How the results depend on the processing

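Of 336 counts of called genes (28 comparisons under 12 settings), 261 were within 1.5 times the value reported and 75 were not. Of 1773 changes of named genes, 1648 kept sign and call, 119 were no longer called and 6 changed sign, and the cause was not tested. With the lower and higher thresholds of 20 and 100 normalised reads, 26 of 26 counts of genes on were within 1.5 times, as were the counts without the 4 libraries of fewest genes. These counts are totals per type and day and do not cover the order of onset. Low depth limits genes near 0.

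With DESeq2 the counts were 7, 5, 7, 2, 8 and 2 genes for p3 against pMN, p2 and p0-1, pMN against p2 and p0-1 and p2 against p0-1, 8, 5, 1 and 9 on day 4 for p3, pMN, p2 and p0-1, 11 against NMPs on day 4, 12, 9, 5 and 4 from day 4 to 5, 5, 1, 2 and 3 from day 5 to 6, 2, 3, 1 and 3 for SAG in p0-1, p2, pMN and p3, and 7, 2 and 5 for the rise against p3, p2 and p0-1. It called 2.74 to 22.8% of all genes. With edgeR the counts were 0 (p3 against p2), 2 (pMN against p0-1), 2 (p0-1 on day 4), 4 (day 4 against NMPs) and 2 (p3, day 4 to 5). With a pseudocount of 10 they were 5, 4 and 2 for p3 against pMN and p2 and pMN against p2. With the compared libraries alone they were 1, 1 and 1 for p3 against pMN, p2 and p0-1, 1 for p0-1 on day 4, 4 for day 4 against NMPs and 2, 0 and 1 for p3, pMN and p2 from day 4 to 5. At an adjusted p below 0.05 they were 5, 5, 1 and 2 for p3 against pMN, p2 and p0-1 and pMN against p2, 2 for p0-1 on day 4, 5 for day 4 against NMPs, 2 and 1 for pMN and p0-1 from day 4 to 5, 1 for p2 from day 5 to 6 and 12 for day 6 against NMPs. With array weights they were 1 for pMN against p2, 2 for p0-1 on day 4, 8 and 15 for days 4 and 6 against NMPs, 1 and 1 for p2 and p0-1 from day 4 to 5 and 1 for the rise against p0-1. Quantile normalisation gave 1 for pMN against p2, 1 for p2 against p0-1, 1 for p3 on day 4, 1 for day 4 against NMPs and 2 and 2 for p3 and pMN from day 4 to 5. A minimum mean of 100 gave 2 for pMN against p0-1 and 1 for day 4 against NMPs. Genes detected as a covariate gave 1 for p3 on day 4, 1 for day 4 against NMPs and 1 for p2 from day 5 to 6. Leaving out the 4 libraries with the fewest genes gave 1 for p3 against pMN, 0 for p3 on day 4, 1 for p3 from day 4 to 5 and 0 for the rise against p3. The replicate block, by library number, left 26 of 28 counts equal and gave 1 for p0-1 on day 4 and 5 for p3 from day 4 to 5.

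Without single libraries the counts ran from 1 to 4, 1 to 4 and 0 to 1 for p3 against pMN, p2 and p0-1, 0 to 1 and 1 to 4 for pMN against p2 and p0-1, 0 to 2, 0 to 1 and 0 to 1 for p3, pMN and p0-1 on day 4, 1 to 3 for day 4 against NMPs, 1 to 4 and 1 to 2 for p3 and pMN from day 4 to 5, 0 to 1 and 0 to 1 for p3 and p2 from day 5 to 6, 0 to 3, 0 to 1 and 0 to 1 for the rise against p3, p2 and p0-1, 17 to 19 for day 6 against day 4 and 6 to 8 for day 6 against NMPs. For Kif1a, leaving out single libraries gave -4.60 to 0.61 for p3 on day 4, -0.86 to 4.45 for p3 from day 4 to 5 and -5.02 to 0.32 for the rise. It changed sign without p3 at 100 nM on day 4, replicate 3, and with the 4 libraries left out, to 0.61 and 0.61 for p3 on day 4, to -0.86 and -0.79 for p3 from day 4 to 5 and to 0.32 and 0.13 for the rise.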
